A study of Mus musculus with 4 samples.

Results

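The immature thymocyte and receptor rearrangement genes are 10 mouse genes, Rag1, Rag2, Dntt, Ptcra, Endou, Cd8a, Cd8b1, Lef1, Bcl11b and Themis, among the 30974 genes measured on the arrays. They were represented by 16 of 39429 probes, which occupied 34 of 43020 spots. The genes were chosen by measured values of these data, those of the scanner files among them, so their scanner values are given as a description, without a test.

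The study measured gene expression in mouse whole lung on Agilent 1-colour (Cy3) arrays, with 4 groups of 1 array each, and each array carried total RNA pooled from 4 samples. The groups were Pla2g3-/- lungs after antigen challenge, Pla2g3-/- control lungs, Pla2g3+/+ lungs after antigen challenge and Pla2g3+/+ control lungs. The model was ovalbumin asthma: mice were sensitised on days 0 and 14 by injection of 10 µg of ovalbumin with 1.3 mg of alum, inhaled 1% ovalbumin for 30 min on each of days 26, 27 and 28, and lung RNA was taken 48 h later. The same protocol stands beside every sample in the labels, so the treatment of the control mice, like strain, sex and age, was not given in the sources used here. With 1 pool per group, no difference between groups has a replicate check.

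T cell and B cell receptors are assembled by cutting and rejoining receptor gene segments, and in T cells this takes place in the thymus. The RAG1 and RAG2 proteins form the enzyme that cuts the segments, and terminal deoxynucleotidyl transferase, encoded by Dntt, adds untemplated bases at the joints. A thymocyte that has rebuilt its beta chain displays it with the invariant pre-T-cell receptor alpha chain, encoded by Ptcra, and then carries CD4 and CD8 together while the alpha chain is rearranged and tested. LEF1 and BCL11B are transcription factors of the T lineage, and THEMIS is a signalling protein needed for thymocyte selection. Lung is not a site of thymocyte development, although mature T cells that carry CD8 and express Lef1, Bcl11b and Themis are present in it.

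Values came from the scanner files and from the authors' value table, which are labelled as the same 4 samples. On the log2 scale over all probes, scanner arrays and the like-named table columns had a correlation of 0.911 to 0.919, against 0.986 to 0.992 among the scanner arrays and 0.989 to 0.994 among the table columns. The scanner files and the table therefore do not hold the same measurements, and differences between groups were taken only within one of them. Each level below is log2 relative to the 75th percentile of its array, which lay at an intensity of 1808 to 1986 in the scanner files. Between 79.2% and 81.9% of scanner spots were well above background, and 0 were saturated. The targeted gene went against the labels in both: Pla2g3 stood at 1.07 and 0.14 in the challenged and control scanner arrays labelled Pla2g3-/-, and at -2.83 and -3.05 in those labelled Pla2g3+/+. The deleted part of Pla2g3 was not given in the sources used here, so the arrays are called KO-labelled and WT-labelled throughout.

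The lung label was set against cell markers. The mean level of the 8 alveolar epithelium genes was -0.00 to 0.28 over the scanner arrays and 4.43 to 4.51 over the table columns, and Cldn18 was above background on the KO-labelled challenged scanner array only. The genes of this list differed in that gap: Sftpc, a surfactant protein gene, stood at -1.33 to -0.26 on the scanner arrays and at 6.92 to 7.04 in the table, while the lipid transporter Abca3 stood at 4.10 to 4.23 on the scanner arrays and at 4.38 to 4.58 in the table. The mean level of the 7 endothelial genes was -3.63 to -2.96 over the scanner arrays and 2.42 to 2.68 over the table columns. The mean level of the 8 airway epithelium genes was 4.65 to 4.82 over the scanner arrays and 1.61 to 2.01 over the table columns. Scanner files and table were scaled separately, so these levels across them are side by side values and were not tested.

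The promoters of the recombination and pre-receptor genes are shown first, since these 4 genes and Endou had the 5 largest differences of the 10 genes between the control scanner arrays. Each window runs from 250 bases before to 20 bases after the transcription start, is read 5′ to 3′ on the gene's strand, and comes from RefSeq on build GRCm38.p6. Capitals mark the E-box letters CANNTG, the core that E proteins such as those of Tcf3 and Tcf12 recognise in early lymphocytes. The windows are chr2:101649513-101649782 on the minus strand for Rag1, chr2:101624462-101624731 on the plus strand for Rag2, chr19:41029025-41029294 on the plus strand for Dntt and chr17:46763693-46763962 on the minus strand for Ptcra.
Rag1: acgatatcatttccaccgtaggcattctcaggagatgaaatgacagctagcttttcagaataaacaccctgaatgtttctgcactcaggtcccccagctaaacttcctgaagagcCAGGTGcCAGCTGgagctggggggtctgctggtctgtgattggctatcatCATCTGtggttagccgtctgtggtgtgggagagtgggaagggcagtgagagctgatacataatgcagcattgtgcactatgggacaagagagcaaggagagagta
Rag2: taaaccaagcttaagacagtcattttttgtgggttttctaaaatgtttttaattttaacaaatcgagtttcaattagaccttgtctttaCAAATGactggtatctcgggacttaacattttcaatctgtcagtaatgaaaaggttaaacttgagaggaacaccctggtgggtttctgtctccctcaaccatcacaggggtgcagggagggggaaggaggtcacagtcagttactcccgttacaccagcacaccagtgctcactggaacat
Dntt: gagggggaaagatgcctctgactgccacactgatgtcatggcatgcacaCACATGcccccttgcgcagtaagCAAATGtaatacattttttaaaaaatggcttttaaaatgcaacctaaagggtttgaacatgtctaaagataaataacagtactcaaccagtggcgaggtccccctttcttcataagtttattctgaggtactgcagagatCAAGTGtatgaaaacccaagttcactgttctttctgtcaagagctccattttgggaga
Ptcra: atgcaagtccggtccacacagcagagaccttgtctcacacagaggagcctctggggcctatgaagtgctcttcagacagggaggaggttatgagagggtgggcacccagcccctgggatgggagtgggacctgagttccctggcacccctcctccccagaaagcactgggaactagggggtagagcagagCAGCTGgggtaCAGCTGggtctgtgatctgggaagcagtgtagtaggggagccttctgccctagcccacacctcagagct
The windows of Rag1 and Dntt held 3 E-box matches each, that of Ptcra 2 and that of Rag2 1.

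Of the 10 genes, 8 matched the promoter table, with 12 transcription starts between them. Some starts of Lef1 and of Themis lie so close that their windows overlap and hold the same E-box letters. Counts by start therefore repeat some matches. An E-box match was present at 11 of these 12 starts, in 7 of the 8 genes, and the start of Bcl11b had 0. The same letters were present in 68.9% of all 32851 promoter windows of this length. The RUNX core TGNGGT was present at 7 of 12 starts, in 5 of 8 genes, against 42.3% of all windows. The TCF and LEF letters, CTTTG and then 2 bases that are each A or T, were present at 2 of 12 starts, those of Bcl11b and 1 start of Lef1, against 15.8% of all windows. Both strands were searched, and 1 E-box of Rag1 and 1 of Ptcra overlapped a RUNX core. These matches are letters in a window and say nothing of whether a factor was bound.

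On the scanner arrays all 10 genes were highest in the KO-labelled control array. It stood above the WT-labelled control array by 6.17-fold for Lef1 to 55.6-fold for Rag1, and above the KO-labelled challenged array by 10.4-fold for Rag2 to 26.9-fold for Ptcra. All 10 were above background on all 4 arrays. The ± beside a scanner difference is the spot error that Feature Extraction reports, a measure of spot reading that leaves out how mice vary. In RNA of whole tissue, fewer cells that express a gene and less of its RNA per cell cannot be told apart.

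**Figure D1:**
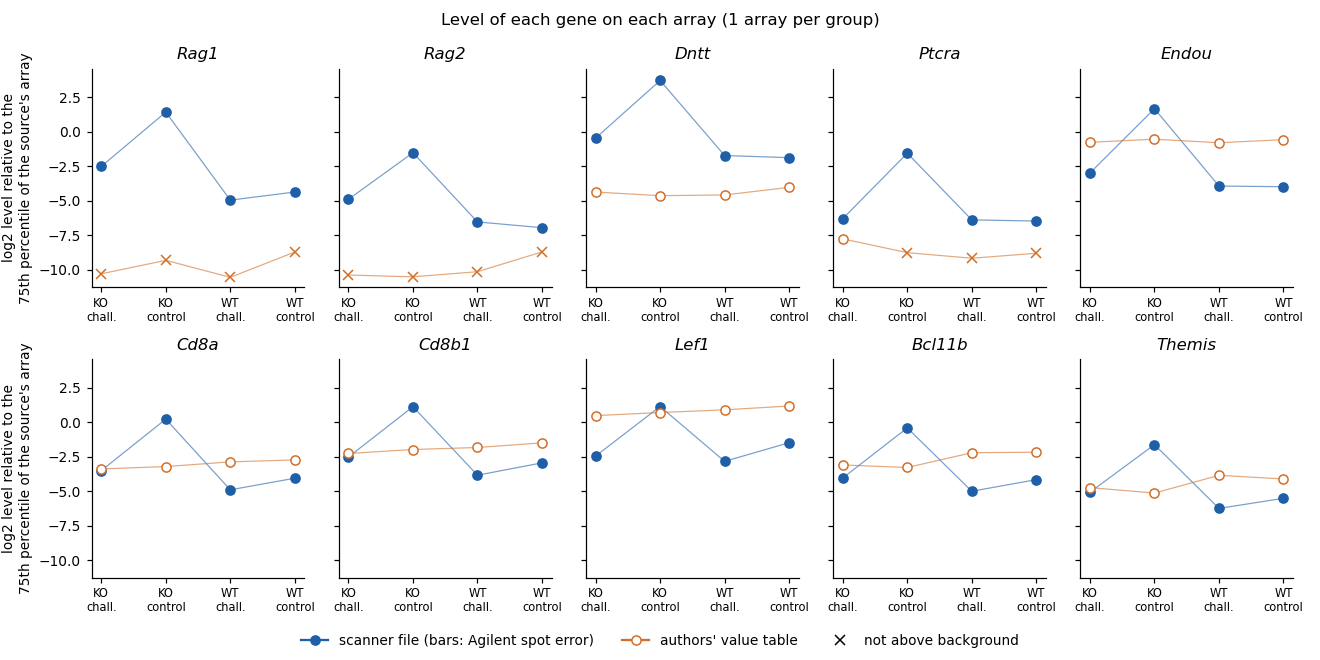
Level of each of the 10 genes on each array, as log2 relative to the 75th percentile of the array (vertical axis), in the KO challenged, KO control, WT challenged and WT control arrays (horizontal axis); blue points are scanner files with Agilent's spot error, orange circles are the authors' value table, and crosses are values not above background. In every blue profile the KO-labelled control array is the highest, up to 3.72 for Dntt, while among the orange profiles above background in every column it is the highest for Endou alone, by 0.03.

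Among the genes of receptor rearrangement, Rag1 had an intensity of 348 on the KO-labelled challenged array, 4945 on the KO-labelled control array, 58.3 on the WT-labelled challenged array and 96.3 on the WT-labelled control array. Its log2 levels were -2.51, 1.43, -4.95 and -4.37 in that order. Both KO-labelled arrays thus lay above both WT-labelled arrays, by 2.45 ± 0.21 after challenge and by 5.80 ± 0.21 in the controls. Rag2 had log2 levels of -4.89 and -1.51 on the KO-labelled challenged and control arrays, and of -6.54 and -6.95 on the WT-labelled challenged and control arrays. Its order was that of Rag1 except that the WT-labelled arrays lay within 2 spot errors of each other. In the mouse the 2 genes are adjacent on chromosome 2. The Rag2 probe lies at chr2:101470723-101470782 on mm9, plus strand, in the coding sequence, over the plant homeodomain finger with which RAG2 binds a histone mark of active chromatin. It is shown because the 10.4-fold and 43.4-fold differences of Rag2 rest on it.
Rag2 probe: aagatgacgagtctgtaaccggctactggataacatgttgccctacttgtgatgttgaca

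Dntt had an intensity of 1445 on the KO-labelled challenged array, 24238 on the KO-labelled control array, 549 on the WT-labelled challenged array and 542 on the WT-labelled control array. Its log2 levels were -0.45 and 3.72 on the KO-labelled challenged and control arrays, and -1.72 and -1.87 on the WT-labelled challenged and control arrays. The WT-labelled arrays did not differ beyond 2 spot errors, and both KO-labelled arrays lay above them. Dntt was 48.4-fold higher in the KO-labelled than in the WT-labelled control array.

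Ptcra had an intensity of 25.1 on the KO-labelled challenged array, 626 on the KO-labelled control array, 21.6 on the WT-labelled challenged array and 22.4 on the WT-labelled control array. The other 3 arrays lay within 2 spot errors of each other, so only the KO-labelled control array stood out, 26.9-fold above the KO-labelled challenged and 30.3-fold above the WT-labelled control array. Endou, which encodes an endoribonuclease, had log2 levels of -2.98 and 1.68 on the KO-labelled challenged and control arrays, and of -3.93 and -3.98 on the WT-labelled challenged and control arrays. Its KO-labelled control value was 25.3-fold above the KO-labelled challenged one and 50.4-fold above the WT-labelled control one.

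The co-receptor chains Cd8a and Cd8b1, adjacent on mouse chromosome 6, had nearly the same profile. The brighter Cd8a probe was printed 10 times on each array, and its log2 level was -3.51 ± 0.09 on the KO-labelled challenged array, 0.22 ± 0.07 on the KO-labelled control array, -4.90 ± 0.15 on the WT-labelled challenged array and -4.06 ± 0.07 on the WT-labelled control array (SD over 10 spots of 1 array). The spots of the 4 arrays did not overlap between the KO-labelled control array, whose lowest was 0.07, and any other, of which the highest was -3.39. Spots of 1 array repeat the reading of 1 pool, so this says nothing of the spread between mice. Cd8b1 had log2 levels of -2.52 and 1.13 on the KO-labelled challenged and control arrays, and of -3.84 and -2.95 on the WT-labelled challenged and control arrays. Both chains were lower in the challenged than in the control array of each label. The log2 differences were -3.73 (Cd8a) and -3.65 (Cd8b1) in the KO-labelled pair, and -0.84 (Cd8a) and -0.90 (Cd8b1) in the WT-labelled pair. The root mean square distance between their mean-centred profiles was 0.08, the smallest among the 45 pairs of the 10 genes.

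The dimmer Cd8a probe lies in the coding sequence, over the immunoglobulin-like domain of CD8 alpha, at chr6:71323885-71323944 on mm9, plus strand. It is shown as a check of Cd8a by a separate stretch of the transcript.
Cd8a probe: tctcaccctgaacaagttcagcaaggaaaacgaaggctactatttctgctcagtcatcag
It read -4.38 and -0.60 on the KO-labelled challenged and control arrays, and -5.11 and -4.53 on the WT-labelled challenged and control arrays, the same order of arrays as the brighter probe. For this probe, however, the KO-labelled challenged and WT-labelled control arrays lay within 2 spot errors of each other. Its KO-labelled control array was 13.7-fold above the KO-labelled challenged and 15.2-fold above the WT-labelled control array.

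Among the lineage factors, Lef1, which encodes a high-mobility-group partner of beta-catenin, had log2 levels of -2.45 and 1.14 on the KO-labelled challenged and control arrays, and of -2.84 and -1.48 on the WT-labelled challenged and control arrays. It was the only one of the 10 whose WT-labelled control array ranked above the KO-labelled challenged array, and the only one at least 2-fold lower in the WT-labelled challenged than in the WT-labelled control array, by 2.56-fold. Bcl11b, whose zinc-finger protein commits precursors to the T lineage, had log2 levels of -4.04 and -0.41 on the KO-labelled challenged and control arrays, and of -5.01 and -4.16 on the WT-labelled challenged and control arrays. Its KO-labelled challenged and WT-labelled control arrays were 0.12 apart, within 2 spot errors. The Bcl11b probe, shown because its sequence codes for a zinc finger of the protein, lies at chr12:109153847-109153906 on mm9, minus strand.
Bcl11b probe: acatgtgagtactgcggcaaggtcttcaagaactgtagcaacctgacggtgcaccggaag
Themis had log2 levels of -5.08 and -1.63 on the KO-labelled challenged and control arrays, and of -6.25 and -5.52 on the WT-labelled challenged and control arrays. Its KO-labelled challenged and WT-labelled control arrays were 0.44 apart, also within 2 spot errors.

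Of the 10 genes, 6 had another probe, at a different place in the transcript. All 6 of these probes were highest on the KO-labelled control array. They read the same pools on the same arrays, whose values the choice of the genes used, so they add no replicate. For Bcl11b and Lef1 the other probe gave a KO-labelled control value 10.6-fold (Bcl11b) and 5.39-fold (Lef1) above the WT-labelled control array. The other Rag1 probe was above background on the KO-labelled arrays only, at least 23.3-fold higher in the KO-labelled than in the WT-labelled control array and at least 1.94-fold higher after challenge. The other probes of Rag2 and Themis were above background on the KO-labelled control array only, at least 3.43-fold (Rag2) and 4.07-fold (Themis) higher there than on the WT-labelled control array, and at least 2.89-fold (Rag2) and 3.43-fold (Themis) higher there than on the KO-labelled challenged array. The other Rag2 probe is printed repeatedly, and 9 of 9 of its unflagged spots were above background on the KO-labelled control array, against 2 of 10 on the KO-labelled challenged, 0 of 8 on the WT-labelled challenged and 0 of 8 on the WT-labelled control array.

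**Figure D2:**
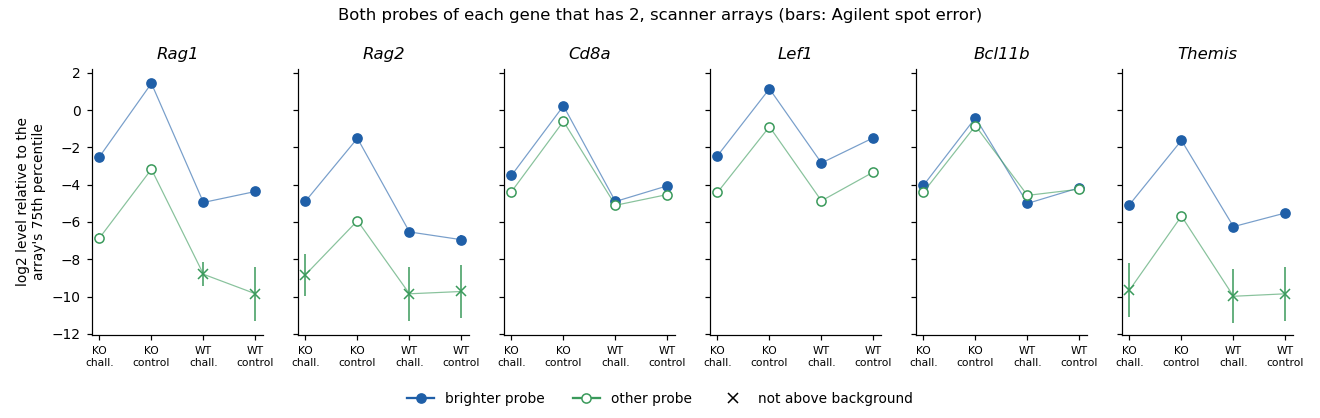
Both probes of the 6 genes that have another probe, on the 4 scanner arrays, as log2 relative to the array's 75th percentile (vertical axis); blue is the brighter probe, green the other, bars are Agilent's spot error and crosses are values not above background. Each green profile, like each blue one, is highest on the KO-labelled control array.

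Set against all genes, the scanner differences of the 10 genes read as follows. All 10 were at least 2-fold lower in the KO-labelled challenged than in the KO-labelled control array, where 4.35% of 25412 genes above background were. Their median log2 difference was -3.69 and that of all genes -0.06. All 10 were at least 2-fold higher in the KO-labelled than in the WT-labelled control array, where 3.59% of 25554 genes were, with a median of 4.60 against -0.03 over all genes. These 2 comparisons share the KO-labelled control array, and the choice of the genes used both. Spot errors of these differences were 0.20 to 0.29.

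Without the KO-labelled control array, 2 comparisons between scanner arrays remain. After challenge, 6 of the 10 were 2-fold or more higher in the KO-labelled than in the WT-labelled array (Rag1, Rag2, Dntt, Cd8a, Cd8b1 and Themis), where 4.2% of 25685 genes were. Their differences ran from 1.18 for Themis to 2.45 for Rag1, the other 4 stood between 0.09 and 0.97, and the median over all genes was -0.06. This count was 3 with normexp background correction. In the WT-labelled pair, 1 of the 10 genes (Lef1) was at least 2-fold lower in the challenged array, where 2.03% of 25756 genes were. Endou, Ptcra, Dntt and Rag2 stood at 0.05 to 0.42 in that pair and Rag1 at -0.59, while Cd8a, Cd8b1, Lef1, Bcl11b and Themis stood at -1.35 to -0.73.

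The challenge response of the KO-labelled pair minus that of the WT-labelled pair was at least 2-fold negative for all 10 genes, against 5.12% of 26243 genes. This contrast contains the KO-labelled control array, whose values the choice of the genes used, so the count follows in part from that choice. The difference of responses ran from -4.83 for Ptcra to -2.24 for Lef1, with spot errors of 0.29 to 0.39. The genes whose WT-labelled pair lay within 2 spot errors of 0 (Ptcra, Endou, Dntt and Rag2) had values of -4.83 to -3.80, and the other 6 had values of -3.35 to -2.24. The WT-labelled response is subtracted in these values, so this split follows in part from the calculation.

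**Figure D3:**
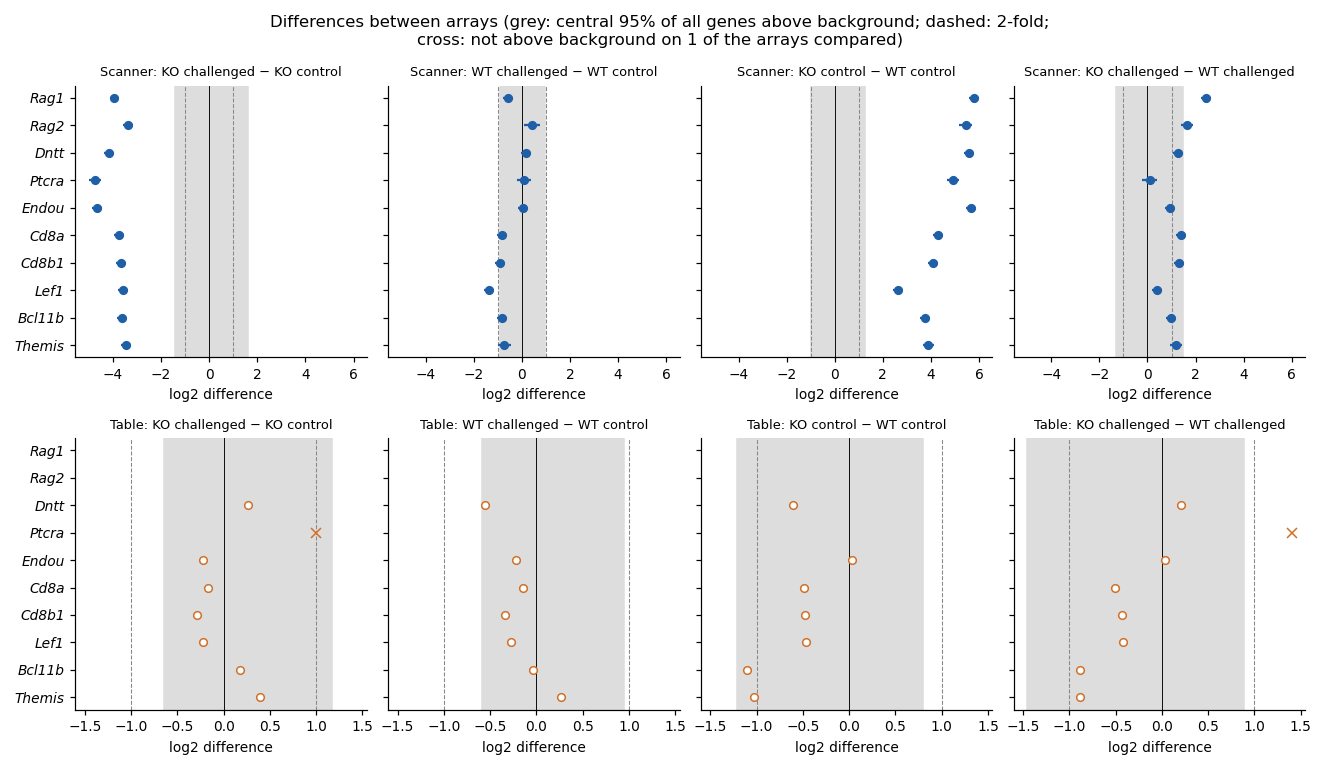
Log2 difference (horizontal axis) of each of the 10 genes (vertical axis) in 4 comparisons, in the scanner files (top row, with Agilent's spot error) and in the authors' value table (bottom row, on a narrower axis); the grey band holds the central 95% of all genes above background and dashed lines mark 2-fold. In the top row all 10 genes lie outside the band in both comparisons that use the KO-labelled control array, and in the bottom row Ptcra after challenge, above background on the KO-labelled array alone, is the only value outside the band. Genes not above background on either array compared, such as Rag1 and Rag2 in the table, are not drawn.

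In the authors' value table the KO-labelled control column was not the one in which these genes were high. Of the 7 genes above background in every column it was the highest for Endou alone, by 0.03. Rag1 and Rag2 were not above background in any column. Ptcra was above background in the KO-labelled challenged column only, at -7.76, against -8.77 in the KO-labelled control column and -9.17 and -8.81 in the WT-labelled challenged and control columns. That is at least 1.46-fold above the KO-labelled control column and at least 1.45-fold above the WT-labelled challenged column. Dntt stood at -4.37 and -4.63 in the KO-labelled challenged and control columns, and at -4.58 and -4.03 in the WT-labelled challenged and control columns. The 4 Dntt values span 0.61, against 5.60 on the scanner arrays.

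The CD8 chains and Lef1 had the same order of columns in the table. Cd8a stood at -3.39 ± 0.06 and -3.22 ± 0.06 in the KO-labelled challenged and control columns, and at -2.88 ± 0.08 and -2.73 ± 0.07 in the WT-labelled challenged and control columns (SD over 10 spots). Cd8b1 stood at -2.27 and -1.98 in the KO-labelled challenged and control columns, and at -1.83 and -1.50 in the WT-labelled challenged and control columns. Lef1 stood at 0.48 and 0.71 in the KO-labelled challenged and control columns, and at 0.90 and 1.18 in the WT-labelled challenged and control columns. All 3 were thus lower in the KO-labelled columns, the reverse of the control scanner arrays, and lower in the challenged column of each label.

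Bcl11b stood at -3.10 and -3.28 in the KO-labelled challenged and control columns, and at -2.21 and -2.17 in the WT-labelled challenged and control columns. Themis stood at -4.74 and -5.14 in the KO-labelled challenged and control columns, and at -3.85 and -4.11 in the WT-labelled challenged and control columns. Both were more than 2-fold lower in the KO-labelled than in the WT-labelled control column, with log2 differences of -1.11 (Bcl11b) and -1.02 (Themis). The other Themis probe ran the other way, at -6.75 and -6.69 in the KO-labelled challenged and control columns and at -7.75 and -7.99 in the WT-labelled challenged and control columns. Endou kept close to 1 level, at -0.76, -0.54, -0.79 and -0.57 in the KO-labelled challenged, KO-labelled control, WT-labelled challenged and WT-labelled control columns.

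Few of the 10 genes were 2-fold different in the table. Of 8 above background in the KO-labelled pair, 1 (Ptcra) had a measured value at least 2-fold higher in the challenged column, where 3.28% of 24977 genes did. Of 7 in the WT-labelled pair, 0 were 2-fold different, where 3.46% of 25555 genes were. Of 7 in the control columns, 2 were at least 2-fold lower in the KO-labelled one, where 3.25% of 25384 genes were. Of 8 in the challenged columns, 1 (Ptcra) had a measured value at least 2-fold higher in the KO-labelled one, where 2.11% of 25330 genes did. Of the differences of response, 1 of 8 (Ptcra) was at least 2-fold positive as measured, where 3.02% of 25937 genes were. All 3 counts of Ptcra rest on columns in which it was not above background, and its bounds above stay under 2-fold.

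The averaged effect of challenge could be tested in the table, in a limma additive model of genotype label and treatment with 1 residual degree of freedom. None of the 8 genes tested passed an adjusted p of 0.05 (0 of 8, Benjamini-Hochberg over 25937 genes), and neither did any other gene (0%). A model that called 0 of all genes cannot tell whether these 8 responded. They were also chosen with earlier results of these data known. The adjusted limma p-values of the 8 ran from 0.568 to 0.853. At an unadjusted limma p of 0.05, 2 of the 8 passed, Cd8b1 with -0.31 and Themis with 0.33 for challenged minus control on the log2 scale, as did 2272 of the 25937 genes. With a variance trend in the same model 118 genes passed (0.455%), of which 0 were among the 10, whose lowest adjusted limma p was then 0.212.

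Set beside the table column of the same name, the scanner level was higher for all 10 genes on the KO-labelled control array, by 0.44 for Lef1 to 8.36 for Dntt among the genes above background in both. Against the WT-labelled control column, scanner minus table was -3.41 to -1.33 for Endou, Cd8a, Cd8b1, Lef1, Bcl11b and Themis, and 2.15 for Dntt. Rag1, Rag2 and Ptcra were not above background in the control columns of the table. The scanner files and the table were scaled separately, so these are side by side values, and they were not tested. The share of all genes with a higher scanner level was not counted.

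The other genes of the pathway were taken from fixed lists, in which differences are again between single arrays. Over all genes above background, 3.59% were at least 2-fold higher in the KO-labelled than in the WT-labelled control scanner array. In the KO-labelled scanner pair, 4.35% were at least 2-fold lower after challenge. Most genes of the T cell receptor list were high on the same scanner array as the 10 genes. Of 16 genes for the receptor complex and its signalling, 13 were at least 2-fold higher in the KO-labelled than in the WT-labelled control array and 0 lower, with a median of 2.53. Lck, the kinase that starts receptor signalling, stood at 3.66, the adaptor Lat at 3.34 and the CD3 chains Cd3d and Cd3g at 3.33 and 3.24. In the KO-labelled pair 13 of the 16 were at least 2-fold lower after challenge, with a median of -2.42. In the table, 0 of the 16 genes were 2-fold different in either comparison, with medians of -0.57 between the control columns and 0.24 in the KO-labelled pair.

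Of 16 genes of CD4 and CD8 double-positive thymocytes, 9 were at least 2-fold higher in the KO-labelled than in the WT-labelled control scanner array and 0 lower, with a median of 1.25. H2-T3, which encodes the thymus leukaemia antigen, stood at 4.94, the signalling adaptor Sh2d1a at 4.94, the chemokine receptor Ccr9 at 4.30 and the chromatin organiser Satb1 at 3.64. In the KO-labelled pair 11 of the 16 were at least 2-fold lower after challenge. Cd4 itself stood at 1.35 and 1.89 on the KO-labelled challenged and control arrays, and at 1.33 and 1.41 on the WT-labelled challenged and control arrays, a difference under 2-fold in every comparison. Of 15 genes of Notch signalling and early T lineage factors, 5 were 2-fold higher in the KO-labelled than in the WT-labelled control array and 0 lower (median 0.23), with the lineage factors Tcf7 at 4.11, Gfi1 at 3.66 and Gata3 at 3.08. The receptor Notch1 was also among the 5, at 1.41. In the KO-labelled pair 4 of the 15 were at least 2-fold lower after challenge and 1 was higher, Notch1 at 1.14.

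The genes of the general machinery that rejoins cut DNA mostly differed by less than 2-fold. Of 13 genes of receptor gene cutting and end joining, 2 were at least 2-fold higher in the KO-labelled than in the WT-labelled control scanner array, with a median of 0.11. They were Dclre1c, which encodes the hairpin-opening nuclease Artemis, at 1.24, and Xrcc6, which encodes a subunit of the Ku end-binding protein, at 1.23. In the KO-labelled pair Xrcc6 was the only one 2-fold lower after challenge, at -1.19. Of 13 cell cycle genes, 9 were higher by 2-fold or more in the KO-labelled than in the WT-labelled control array, with a median of 1.27, among them Top2a at 1.59 and Rrm2 at 1.54. In the KO-labelled pair 1 of 13 was 2-fold lower after challenge, Rrm2 at -1.44, and 0 were higher, with a median of -0.78. In the table, of 12 cell cycle genes, 0 were 2-fold different between the control columns (median -0.35), and 9 of 13 were 2-fold higher in the KO-labelled challenged than in the KO-labelled control column.

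Markers of other cell types moved with the 10 genes in part. Of 14 mature and activated T cell genes above background, 3 were at least 2-fold higher and 1 lower in the KO-labelled than in the WT-labelled control scanner array (median -0.08), with the co-stimulatory receptor Cd28 at 2.90 and the egress receptor S1pr1 at -1.20. Of 9 NK and cytotoxic genes 1 was higher (Gzma at 1.28). Of 9 B cell genes 6 were 2-fold lower in the KO-labelled control array, the antigen receptor subunit gene Cd79a at -1.51, with mean log2 levels of -3.05, -3.08, -3.01 and -1.87 on the KO-labelled challenged, KO-labelled control, WT-labelled challenged and WT-labelled control arrays. Of the 4 B cell precursor genes, which with Rag1, Rag2 and Dntt mark B cells rearranging their own receptors, 0 were 2-fold different between the control arrays, and their mean levels were -2.78, -2.34, -2.30 and -2.20 in the same order of arrays.

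Of 9 thymic epithelium genes above background, 2 were at least 2-fold higher in the KO-labelled than in the WT-labelled control scanner array and 0 lower, with a median of 0.38. Foxn1, the factor that builds thymic epithelium, stood at -5.33 on the KO-labelled control array and at -5.49 and -7.35 on the WT-labelled challenged and control arrays, and was not above background on the KO-labelled challenged array, where it was at least 4.38-fold lower than on the KO-labelled control array. The mean level of the 10 thymic epithelium genes was -5.10, -4.49, -5.29 and -5.08 on the KO-labelled challenged, KO-labelled control, WT-labelled challenged and WT-labelled control arrays, and Fezf2 was below background on all 4. In the table Foxn1, Psmb11 and Fezf2 were below background in all 4 columns. The part of thymic epithelium and of the other markers in the differences of the 10 genes was not tested.

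The remaining lists held few genes that were 2-fold different. Of 6 cartilage genes above background, Col2a1 was 3.41 and Comp 1.11 higher on the log2 scale in the KO-labelled than in the WT-labelled control scanner array. Of 9 parathyroid and thyroid genes, Pth was 2-fold lower there, at -2.11. Of 7 endothelial genes, Cldn5 and Cdh5 were lower, at -1.44 and -1.06. Of 6 dendritic cell genes, Itgae was higher, at 1.08. None of the 7 alveolar and 8 airway epithelium genes above background was 2-fold different between the control scanner arrays (0 of 7 and 0 of 8).

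**Figure D4:**
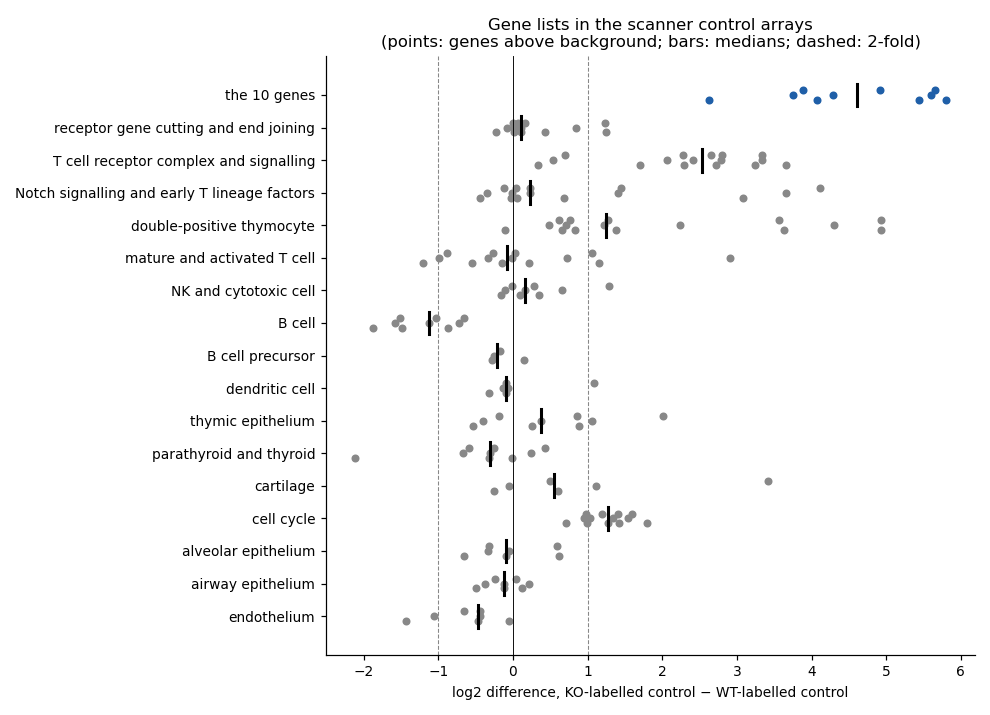
Log2 difference of the KO-labelled minus the WT-labelled control scanner array (horizontal axis) for genes above background on either array, by gene list (vertical axis); black bars are medians and dashed lines mark 2-fold. The 10 genes (blue) have the highest median, 4.60, followed by the T cell receptor list at 2.53. The choice of the 10 genes used this comparison, so their place above the other lists follows in part from that choice.

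Among the 10 genes, the scanner profiles fell along a range. After subtraction of each gene's mean over the 4 arrays, Cd8a lay closest to the mean profile of the 10, at a root mean square distance of 0.15, and Lef1 farthest, at 0.77. The closest pairs after the CD8 chains were Bcl11b with Themis and Cd8b1 with Themis, at 0.12 each, and the farthest was Rag1 with Lef1, at 1.34. The adjacent Rag1 and Rag2 were 0.50 apart, more than Rag2 and Dntt at 0.30.

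Of 16349 other named genes above background on all 4 scanner arrays, the 8 with the smallest distance to the mean profile were Trat1 at 0.07, Tcf7 at 0.18, Sh2d1a at 0.19, Ccr9 and Tmem151b at 0.24 each, Nsg2 at 0.25, Syt13 at 0.26 and Slc16a5 at 0.29. Trat1, which encodes a transmembrane adaptor of the T cell receptor, stood at -5.16 and -1.35 on the KO-labelled challenged and control arrays, and at -6.29 and -5.77 on the WT-labelled challenged and control arrays. In the table, Trat1 stood at -3.67 and -3.95 in the KO-labelled challenged and control columns, and at -2.75 and -2.81 in the WT-labelled challenged and control columns, so its KO-labelled control column was the lowest. In the table the 7 of the 10 genes above background in all columns had another set of nearest genes among 16400, led by Vamp9, H2-Eb2 and Olfr1173 at 0.02 each. These distances over 4 arrays are descriptions of profile shape.

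**Figure D5:**
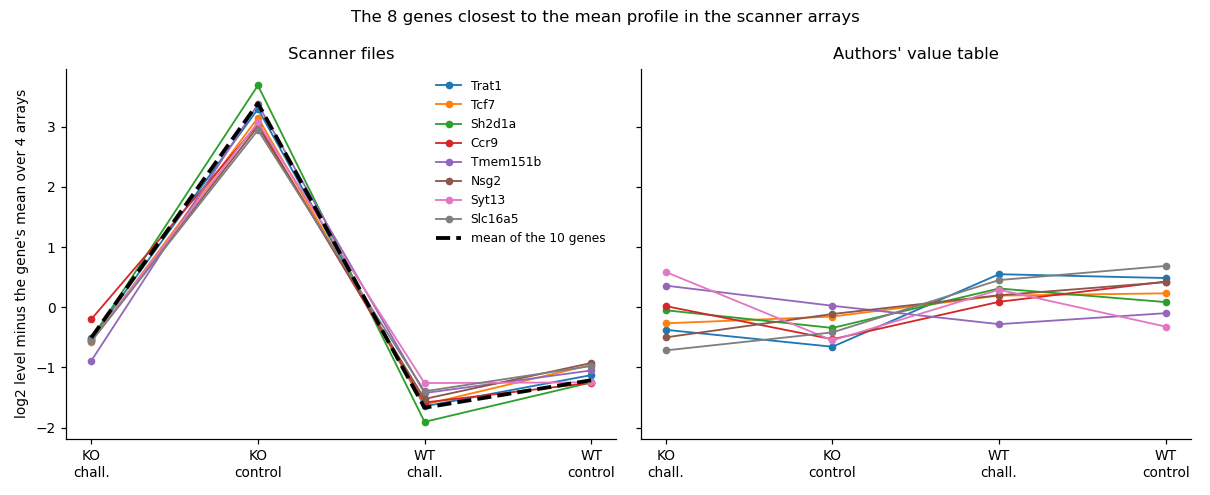
The 8 genes closest to the mean scanner profile of the 10 genes, as log2 level minus the gene's mean over the 4 arrays (vertical axis), on the KO challenged, KO control, WT challenged and WT control arrays (horizontal axis), in the scanner files (left) and in the authors' value table (right); the dashed black line is the mean of the 10 genes. All 8 peak on the KO-labelled control array in the scanner files, the closest being Trat1 at a distance of 0.07, and none of them is highest there in the table.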

How the data were processed

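Total RNA (200 ng) from 4 pools was labelled with Cy3 and hybridised to 1 array each, per the labels' protocols. The scanner files hold the intensity of each spot, read with Agilent Feature Extraction 11.5.1.1, per the file headers, with the background correction setting at 0 and probes placed on mm9. The authors' deposited value table holds linear signal values, whose 75th percentiles lie at about 1.00; their making was not given in the sources used here.

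Spots flagged as outliers were left out, which removed 19 probes, the other spots of a probe were averaged, and each gene took its brightest probe. Scanner intensities were taken to log2 and each array's 75th percentile was subtracted. For the table, log2 alone was applied. Above background meant Agilent's flag in the scanner files, and over 5 times the median of the 153 negative controls in the table, which holds no flag. Genes were counted at 2-fold or more where above background on at least 1 array compared. The table was kept as a separate source, since like-named columns and scanner arrays differed. In the table, limma 3.58.1 (R 4.3.3) fitted genotype label and treatment, and was tested on simulated data. With 1 array per group, the number of arrays limits precision and p-values reflect disagreement between labels, not variation between mice.

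The 10 genes, the gene lists and the tests were chosen with earlier results of these data known. Named genes are the 10 genes, Pla2g3, up to 4 genes per list by size of difference, the 8 nearest profiles, and markers of the labelled tissue. Cd4 and the tissue markers Sftpc, Abca3 and Cldn18 were picked after their values were seen. Names came from RefSeq accession (28758 probes), symbol (2029) or the file (8642). Alternatives were other fold rules, scalings, background corrections, filters and probe rules. Other columns of sample values numbered 0.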

Additional observations from a re-analysis of the deposited data

Results flagged for a closer look

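For 4 genes on the scanner arrays the challenge difference had opposite signs under the 2 labels. The KO-labelled pair minus the WT-labelled pair was, with each pair's own value in brackets, -3.80 for Rag2 (-3.38 and 0.42), -4.33 for Dntt (-4.18 and 0.15), -4.83 for Ptcra (-4.75 and 0.09) and -4.71 for Endou (-4.66 and 0.05), all on the log2 scale. In each of the 4 the WT-labelled difference lay within 2 spot errors of 0, and the genes were chosen on these arrays. The share of all genes with opposite signs was not counted, so the count of 4 is not a result about these genes.

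In the value table the challenge difference had opposite signs for Dntt, where the KO-labelled pair minus the WT-labelled pair was 0.82 (0.26 and -0.55), and for Bcl11b, where it was 0.22 (0.18 and -0.04). The difference between labels also had opposite signs for Dntt, for which KO-labelled minus WT-labelled was -0.61 in the control and 0.21 in the challenged columns, a difference of -0.82. With 1 array per group these differences were not tested, and the share of all genes with opposite signs was not counted.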

How the results depend on the processing

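No paired analysis was possible because each group has 1 array, and for the same reason no replicate could be left out. On the scanner arrays the counts of 10 genes in the KO-labelled pair, between the control arrays and in the difference of responses were the same under all 9 alternatives run. The count of 1 lower gene in the WT-labelled pair became 6 at 1.5-fold and 0 at 3-fold (10.7% and 2.01% of all genes, in either direction as for every share here), and that of 6 higher genes between the challenged arrays became 2 at 3-fold and 3 with normexp (3.99% and 1.91%). In the table the count of 1 in the KO-labelled pair became 0 at 3-fold, with quantile or median scaling and with genes above background on all arrays (2.21% to 4.54% of all genes), and the count of 0 in the WT-labelled pair became 2 without a filter (4.94%). The count of 2 between the control columns became 0 at 3-fold and 1 with quantile scaling, median scaling or the mean of a gene's probes (2.87% to 5.09%). Between the challenged columns Ptcra was still the only gene higher at 1.5-fold. Bcl11b and Themis were then lower, at -0.89 each, which made 3 in either direction (2902 of 25330 genes). The count of 1 there became 0 at 3-fold or with genes above background on all arrays (3.32% and 3.29%). The count of 1 in the difference of responses became 2 at 1.5-fold or without a filter (12.6% and 8.35%) and 0 at 3-fold or with genes above background on all arrays (3.24% and 2.32%). The difference of Themis between the control columns reversed to 0.14 with the mean of its probes, against -1.02 with the brighter probe, since its probes ran opposite ways. Of 314 other values over 88 results, 266 stayed close, 47 moved and 1, that of Themis, reversed. The limma model called 0 of all genes in every setting run but the variance trend, so its count of 0 among the 10 says nothing of stability. The cause of the other moves was not tested. The median of all genes lay at -0.04 to 0.06 under the other scalings and normexp, against -0.06 to 0.02 in the results as reported. With 1 pool per group, depth is not the limit: the spread between mice was not measured, and Rag1, Rag2 and Ptcra are at or near background in the table.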
